A study of Mus musculus with 4 samples.

Results

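Glycolysis and hypoxia genes were followed as 1 module of 34 genes across the cell classes of tumour-draining lymph nodes. The 34 genes, of 31053 in the deposited count matrix, were chosen by symbol. No rule on their values was used, but earlier results of these data were known. They cover glucose and lactate transporters, each step from hexokinase to lactate dehydrogenase, the kinases and a subunit of the pyruvate dehydrogenase complex, and genes of the response to low oxygen. The nodes were inguinal nodes of C57BL/6J mice that carried B16F10 tumours, a transplantable mouse melanoma, in the upper anterior thigh on both sides. The control group was 2 tumour-bearing mice given none of the drugs. The treated group was 2 tumour-bearing mice given indoximod, an inhibitor of the IDO pathway of tryptophan breakdown, at 2 mg/ml in the drinking water, and ibrutinib, an inhibitor of the kinase BTK, at 350 ug per day by intraperitoneal injection, both from day 9. On day 10 the same mice were injected with 150 mg/kg of cyclophosphamide, an alkylating agent, and the nodes of all mice were taken 2 days later. Animal age is not given in the sources used here.

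Single-cell libraries used 10x Genomics 3′ reagents of version 3, which count captured 3′ ends of transcripts as unique molecular identifiers (UMIs). The matrix tells 4 libraries apart by a number at the end of the barcode, but no label or table links these numbers to mice or groups. Treated against control was therefore not analysed here, and the libraries are described one by one. The libraries held 6978 to 9831 barcodes and 39589629 to 53643414 UMIs. Of 30824 barcodes, 26096 had at least 300 genes and at most 10% mitochondrial UMIs and were kept. Among them 61 barcode sequences occurred in more than 1 library and were counted as separate cells.

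Cells were placed in classes by gates on marker genes, none of which is a member of the module, and 12 classes held at least 50 cells. The class names stand for these gates. The regulatory T gate (Foxp3 with no CD8 gene) also carried Il2ra at 299 CPM (UMIs of the gene per 1000000 UMIs of the class), Ikzf2 at 792 CPM and Ctla4 at 197 CPM, against 3.66, 7.78 and 2.63 CPM in the naive CD4 T gate. The dividing B gate carried 6 germinal-centre genes at a summed 979 CPM, against 24.1 CPM in resting B cells. The memory-like CD8 T gate asked for 2 of 6 markers and was wide, with 2329 cells. It was also deeper than the naive CD8 T gate, at a median of 8097 against 5432 UMIs per cell. The follicular CD4 T gate, which asked for 2 of 6 follicular helper and memory markers, held haemoglobin RNA at a summed 10540 CPM, ranging over libraries from 11.2 to 31940 CPM. Macrophages were shallow, at a median of 973 UMIs. Every barcode that met the plasma cell gate also met another lineage gate and was set aside as mixed. NK cells (48), plasmacytoid dendritic cells (21), type 1 dendritic cells (17) and neutrophils (5) were too few for a contrast. A single barcode met the melanoma gate.

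Glycolysis breaks glucose down to pyruvate in the cytosol, and lactate dehydrogenase can turn the pyruvate into lactate, which leaves the cell through monocarboxylate transporters. Lymphocytes that are activated and divide are known to raise this flux, and many of the enzymes exist as isoforms from separate genes that differ in kinetics and tissue. The transcription factor HIF-1, whose oxygen-sensitive subunit is encoded by Hif1a, binds a short core motif and raises several glycolytic genes together with genes for oxygen sensing, angiogenesis and mitophagy.

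The module took 0.2217% of all UMIs in kept barcodes, 366576 UMIs in all. Dividing cells held the most. In dividing T cells the 34 genes took 0.475%, 0.513%, 0.551% and 0.538% of UMIs in libraries 1 to 4, against 0.188%, 0.204%, 0.196% and 0.193% in resting T cells (naive CD4 and naive CD8 T cells together). The ranges over the libraries did not overlap, and the summed level was 1.42 higher on the log2 scale. Dividing B cells took 0.420%, 0.467%, 0.267% and 0.364% of UMIs, against 0.166%, 0.176%, 0.167% and 0.164% in resting B cells, a log2 difference of 1.38. Their libraries 3 and 4 rest on 10 and 12 cells, and libraries 1 and 2 on 76 and 100. The germinal-centre genes were also lower in libraries 3 and 4, at 282 and 224 CPM against 1022 and 1066 CPM, and their part in the level was not tested. Depth moved with division: the median was 18870 UMIs in dividing T and 13960 in dividing B cells, against 5500 in resting T and 3772 in resting B cells. With every cell thinned to 1500 UMIs the summed log2 difference was 1.27 in dividing T cells. Of 18 members still tested there, 8 were higher and 2 lower, with median log2 differences of 0.70 for these members and 0.20 for all genes tested. Hk1, Pfkp and Eno1 lost their calls, and Hk2, Eno3, Slc16a3 and Pdk3 had too few counts. In dividing B cells 4 of 26 were higher and 6 lower, with medians of 0.36 for members and -0.07 for all genes tested. The calls of Pfkp, Pgam1, Pkm, Ldha and Pdk1 were lost there, and Slc16a1 had too few counts. The shares of all genes called with thinning are not given here, so the thinned member counts are not set against them.

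Among cells that were not dividing, macrophages were highest at 0.400% (0.604%, 0.328%, 0.301% and 0.219% in libraries 1 to 4). In library 1, 1 barcode held 272 of the 798 macrophage member UMIs, and without it the class stood at 0.277%. Monocyte-like cells followed at 0.285%, follicular CD4 T cells at 0.271%, regulatory T cells at 0.251% and mature dendritic cells (mature DC) at 0.243%. Gamma-delta T cells were at 0.220%, naive CD4 T at 0.200%, memory-like CD8 T at 0.195%, naive CD8 T at 0.184% and resting B cells at 0.168%. From monocyte-like cells to mature DC the library ranges of neighbours in this order overlapped, while regulatory T (0.234% to 0.268%) and naive CD4 T (0.195% to 0.207%) did not overlap. That summed difference depended on the scaling: it was 0.33 on the log2 scale with library totals, 0.13 with totals that leave out immunoglobulin, T cell receptor, ribosomal and mitochondrial genes, and 0.0589 with TMM, which scales by the bulk of genes. Macrophages were the highest class for 9 members, on few UMIs, and without that barcode Aldoa went from 341 to 253 CPM and Tpi1 from 240.5 to 137 CPM. The melanoma-gated barcode held 126 member UMIs of 4417, or 2.85%. A level per class cannot tell more cells with a transcript from more RNA in each cell.

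**Figure D1:**
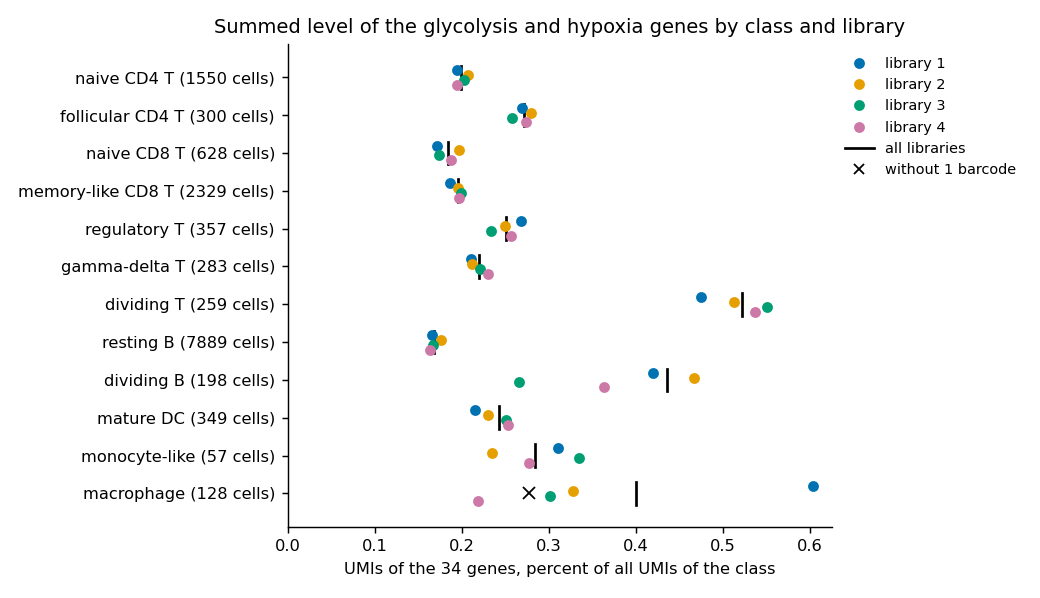
UMIs of the 34 genes as a percent of all UMIs of each class, for the 12 classes of at least 50 cells. Dots are libraries 1 to 4, the black bar is all libraries together, and the cross marks macrophages without 1 barcode (0.277%). Dividing T cells lie between 0.475% and 0.551% in the 4 libraries and resting B cells between 0.164% and 0.176%.

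Classes were then compared gene by gene within each library. For each gene, a library counted where it held 10 or more UMIs of that gene over the 2 classes. A gene with 3 or 4 such libraries was called when all of them showed a CPM ratio of 1.5-fold or more in 1 direction. This fold rule is no significance test, and no p-value was computed. Of the 34 members, 31 had enough counts in at least 1 of the 8 contrasts, 25 were called at least once and 6 never. Hk3, Vegfa and Egln3 lacked the counts in every contrast, with 95, 47 and 272 UMIs in all kept barcodes.

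Dividing T cells had the most members called. Against resting T cells, 15 of 30 members tested were higher, where 21.6% of all genes tested were higher, and 1 was lower, where 6.43% were lower. The median log2 difference was 0.95 over the members tested and 0.25 over all genes tested. The dividing T gate was taken before the regulatory and gamma-delta T gates, while resting T cells are naive CD4 and CD8 T cells only. This contrast therefore mixes division with T cell subset, and their parts were not tested. In dividing against resting B cells 7 of 28 members were higher (7.75% of all genes) and 3 lower (9.1%), with medians of 0.28 and -0.06. Of the dividing T list, 6 members were also called in dividing B cells, 40% of that list and 85.7% of the dividing B list. These were Pfkp, Tpi1, Gapdh, Pgam1, Pkm and Ldha, and the remaining gene of the dividing B list was Slc16a1. Both gates asked for the same dividing-cell markers, and the overlap over all genes was not counted. The shared calls are therefore not a result about the members.

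The 3 contrasts on naive CD4 T cells share those cells as reference and are given side by side. In regulatory T cells 3 of 26 members were higher (5.91% of all genes) and 1 lower (1.3%), with medians of 0.36 for members and 0.19 for all genes. In follicular CD4 T cells 3 of 26 were higher (3.61%) and 2 lower (0.827%), with medians of 0.39 and 0.17. In resting B cells 4 of 29 were higher (16.1%) and 7 lower (8.51%), with medians of 0.32 and 0.16. Memory-like against naive CD8 T cells gave 0 of 27 higher (2.41%) and 1 lower (0.535%), with medians of 0.08 and -0.01. In mature DC against monocyte-like cells 1 of 16 members was higher (12.3%) and 5 lower (12.8%), with medians of -0.71 and -0.12. In macrophages against monocyte-like cells 0 of 13 were higher (7.14%) and 1, Eno3, was lower (11.7%), with medians of 0.20 and -0.14.

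The split of calls over all genes depended on the scaling. In dividing T cells 77.1% of all calls were higher with library totals, 58.8% with TMM factors and 50.8% with totals that leave out immunoglobulin, T cell receptor, ribosomal protein and mitochondrial genes, while members were called higher 15, 14 and 12 times and lower 1, 2 and 2 times. The share of higher calls went from 46% to 28.1% under TMM in dividing B, from 82.0% to 56.6% in regulatory T, from 49.1% to 71.6% in mature DC and from 38.0% to 24.2% in macrophages. In follicular CD4 T cells it was 81.35% with library totals, 57.9% under TMM and 65.5% with the reduced total. In resting B cells it was 65.4%, and 54.6% with the reduced total. The calls of Eno1, Hk1 and Pfkp in dividing T cells, of Pfkp, Pkm and Ldha in dividing B cells, of Gapdh, Pdk3 and Hif1a in follicular CD4 T cells, and of Pkm, Pdha1 and Higd1a in mature DC were lost under at least 1 of these scalings. None changed direction.

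**Figure D2:**
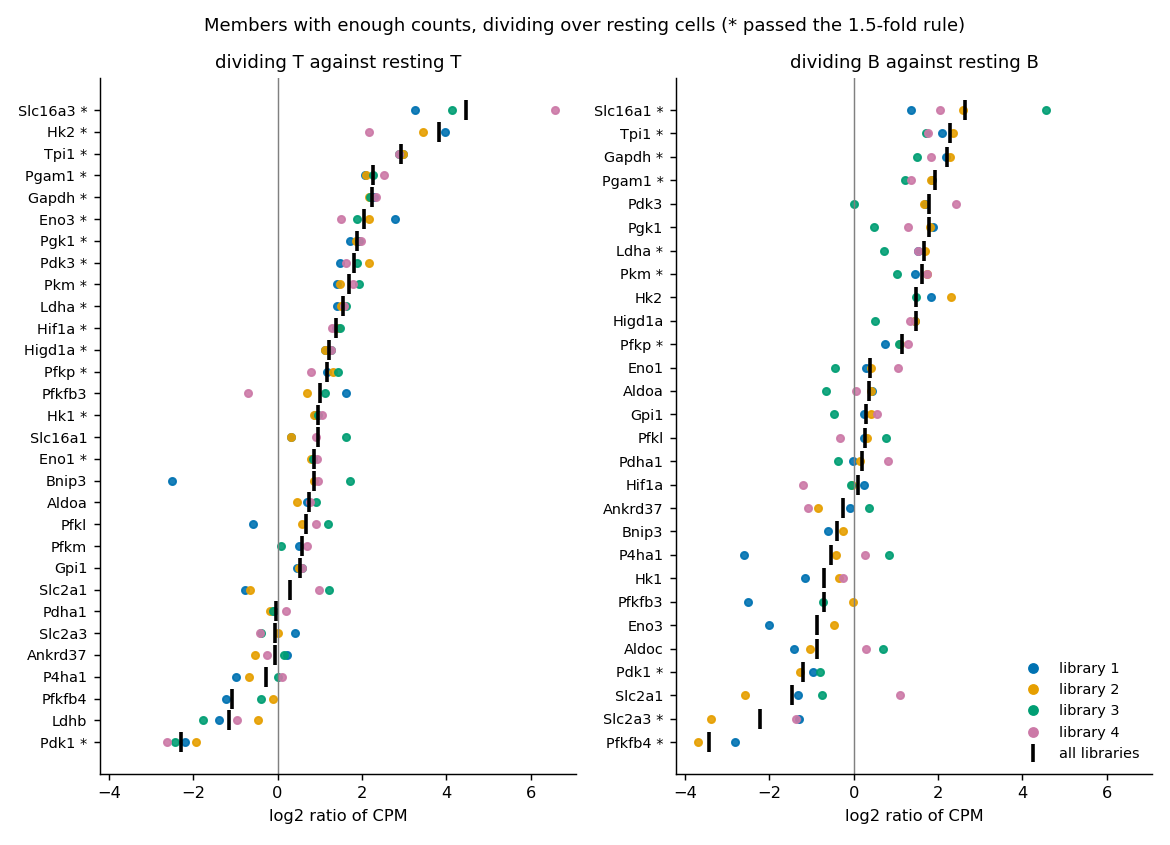
log2 ratio of CPM, dividing over resting cells, for the 30 members tested in T cells and the 28 tested in B cells, ordered by ratio. Dots are libraries, black bars all libraries together, and asterisks mark calls; a library with 0 counts in 1 class has no dot. Tpi1, Gapdh and Pgam1 lie to the right of 0 in all 4 libraries of both panels, and Pdk1 lies to the left in each library with counts.

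The promoters of 5 members from the enolase, lactate dehydrogenase and PFKFB families, whose isoforms differed between classes, are shown from RefSeq on build GRCm38.p6. Each is the 250 bases before and 50 after the most upstream listed start, 5′ to 3′ on the strand of the gene. Capitals mark the HIF core motif ACGTG or GCGTG on either strand, which reads CACGT or CACGC on the opposite one. An uninterrupted CACGTG holds the motif on both strands and counts as 2 overlapping matches. Eno1 lies on the plus strand at chr4:150236458-150236757, Eno3 on the plus strand at chr11:70656926-70657225, Ldha on the plus strand at chr7:46845554-46845853, Ldhb on the minus strand at chr6:142507908-142508207 and Pfkfb3 on the minus strand at chr2:11553880-11554179.
Eno1: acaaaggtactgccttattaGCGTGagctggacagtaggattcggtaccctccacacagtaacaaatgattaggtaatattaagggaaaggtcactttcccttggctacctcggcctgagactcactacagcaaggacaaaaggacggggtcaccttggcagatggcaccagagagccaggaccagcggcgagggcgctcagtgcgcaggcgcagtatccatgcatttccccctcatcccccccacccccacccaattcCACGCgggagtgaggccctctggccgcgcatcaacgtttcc
Eno3: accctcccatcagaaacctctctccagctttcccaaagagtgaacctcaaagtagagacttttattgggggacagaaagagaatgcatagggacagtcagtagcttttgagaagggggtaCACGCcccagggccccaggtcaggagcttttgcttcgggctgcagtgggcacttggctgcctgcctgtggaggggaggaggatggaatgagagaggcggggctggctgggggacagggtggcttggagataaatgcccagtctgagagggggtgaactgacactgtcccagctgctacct
Ldha: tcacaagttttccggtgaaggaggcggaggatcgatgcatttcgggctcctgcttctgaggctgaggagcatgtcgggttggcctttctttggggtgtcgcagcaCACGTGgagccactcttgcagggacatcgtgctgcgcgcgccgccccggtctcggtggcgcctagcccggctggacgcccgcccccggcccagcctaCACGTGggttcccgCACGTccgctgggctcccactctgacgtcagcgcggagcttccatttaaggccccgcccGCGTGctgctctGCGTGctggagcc
Ldhb: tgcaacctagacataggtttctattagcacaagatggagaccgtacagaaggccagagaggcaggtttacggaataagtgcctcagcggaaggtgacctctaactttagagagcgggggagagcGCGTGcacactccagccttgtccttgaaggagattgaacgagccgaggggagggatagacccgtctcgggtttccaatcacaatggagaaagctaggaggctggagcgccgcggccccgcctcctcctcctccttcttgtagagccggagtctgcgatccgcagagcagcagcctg
Pfkfb3: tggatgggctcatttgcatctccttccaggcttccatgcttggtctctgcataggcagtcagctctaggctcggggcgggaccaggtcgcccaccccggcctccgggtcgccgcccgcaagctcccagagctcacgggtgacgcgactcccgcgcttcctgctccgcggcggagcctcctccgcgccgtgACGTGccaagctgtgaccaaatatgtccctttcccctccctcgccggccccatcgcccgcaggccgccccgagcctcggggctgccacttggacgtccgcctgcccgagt
Within enolases, Eno1 held 2 matches and Eno3 held 1, and within lactate dehydrogenases Ldha held 7 and Ldhb 1. Pfkfb3 held 1 match. Of the 33 members found in the table, 27 (81.8%) had at least 1 match in this window, against 11848 of 27025 genes (43.8%). The members include genes chosen for the response to low oxygen, and the 27025 genes were not matched to them in expression or base content. The difference was not tested. The 6 members with none were Aldoa, Gpi1, Hk1, Pkm, Tpi1 and Vegfa. A match describes these letters and is not a measured binding site.

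Glucose transporters were low in every class. Slc2a1, the widely used transporter GLUT1, did not pass the rule in any of 6 contrasts tested, and its highest level over the 12 classes was 30.1 CPM in macrophages, from 6 UMIs. Without the macrophage barcode described above it was 10.5 CPM from 2 UMIs, below the 15.9 CPM of gamma-delta T cells. Slc2a3, the high-affinity transporter GLUT3, was highest in regulatory T cells, at 42.2, 46.3, 53.7 and 34.7 CPM in libraries 1 to 4, against 15.2, 15.4, 11.8 and 10.2 CPM in naive CD4 T cells. The ranges did not overlap, and the level was 3.46-fold higher (log2 difference 1.79, 1.48 to 2.19 over the libraries). The call held with cells thinned to 1500 UMIs. It made up 78.3% of Slc2a1 and Slc2a3 UMIs in regulatory T cells and 59.3% in naive CD4 T cells. In dividing B cells it was lower, at 3.69 against 17.3 CPM in resting B cells.

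Hexokinases trap glucose in the cell by phosphorylation. Hk1, the broadly expressed form, was called higher in dividing T cells, at 47.1, 42.7, 50.1 and 47.2 CPM against 25.4, 23.4, 25.7 and 22.6 CPM in resting T cells. Hk2, the inducible form, was at 17.3, 8.05, 16.9 and 7.76 CPM in dividing T cells against 1.11, 0.743, 0 and 1.72 CPM in resting T cells, from 74 and 11 UMIs. The ranges of neither gene overlapped between the classes. As a share of hexokinase UMIs, Hk2 was 20.9% in dividing T cells and 3.54% in resting T cells.

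In B cells the balance of hexokinases was different. Hk2 made up 22.7% of hexokinase UMIs in resting B cells (15.9% to 31.2% over the libraries) and 1.77% in naive CD4 T cells (0% to 5.09%), from 155 and 4 UMIs. In dividing B cells its share was 56.7%, and in monocyte-like cells, where Hk2 had its highest level at 81.2 CPM, it was 62.3%. Hk3, a form known from myeloid cells, had 6 UMIs in macrophages and 6 in monocyte-like cells, which are its highest levels at 30.1 and 14.8 CPM.

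Phosphofructokinase commits the sugar to glycolysis. Pfkp, the platelet form, was called higher in dividing T cells, at 91.0, 102, 81.7 and 66.0 CPM against 40.2, 40.8, 30.5 and 37.8 CPM, and in dividing B cells, at 49.0, 75.6, 56.3 and 66.0 CPM against 29.2, 35.6, 26.8 and 27.0 CPM. No library of the dividing cells fell into the range of the resting ones. Pfkl, the liver form, was not called in any of 6 contrasts. It held 46.0% of phosphofructokinase UMIs in resting B cells (41.9% to 49.7%) and 25.1% in memory-like CD8 T cells (23.3% to 26.7%), ranges that did not overlap. Pfkm, the muscle form, was at most 5.01 CPM, in macrophages from 1 UMI, and was tested only in dividing T cells.

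PFKFB enzymes make and remove fructose 2,6-bisphosphate, the strongest activator of phosphofructokinase. Pfkfb3, whose product favours synthesis, was a gene of mature DC. It stood at 600, 640, 500.3 and 621 CPM there, against 87.4, 68.0, 74.3 and 14 CPM in monocyte-like cells, the class with the next level. The ranges were far apart, and the level was 10.8-fold higher (log2 difference 3.43, 2.75 to 5.47 over the libraries). At least 1 Pfkfb3 UMI was found in 280 of 349 mature DC (80.2%), against 3.82% of resting B cells and 4.19% of naive CD4 T cells. Mature DC had a median of 7546 UMIs, resting B cells 3772 and naive CD4 T cells 5516. After thinning to 1500 UMIs, which left out 31, 108 and 1 shallower cells, the shares were 53.8%, 1.56% and 1.68%.

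Pfkfb4, another enzyme of the family, was spread differently. It stood at 12.5, 16.2, 16.3 and 13.4 CPM in resting B cells against 4.70, 2.86, 3.05 and 3.67 CPM in naive CD4 T cells, a 4.09-fold difference with no overlap, and was called lower in dividing B cells, where 4 UMIs were left. Pfkfb3 made up 99.2% of Pfkfb3 and Pfkfb4 UMIs in mature DC (98.65% to 100% over the libraries), 73.5% in naive CD4 T cells and 49.6% in resting B cells (46.3% to 54.9%). Resting B cells also held mature DC markers other than Ccr7 at a summed 172 CPM, most of it Il4i1 at 127 CPM. Fscn1, Ccl22 and Cacnb3 were at 22.3, 16.4 and 6.27 CPM, against 2556, 1509 and 580 CPM in mature DC. Leaving out lymphocytes with a UMI of Fscn1, Ccl22 or Cacnb3, an alternative added after the data were seen, put the resting B share at 37.6%.

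**Figure D3:**
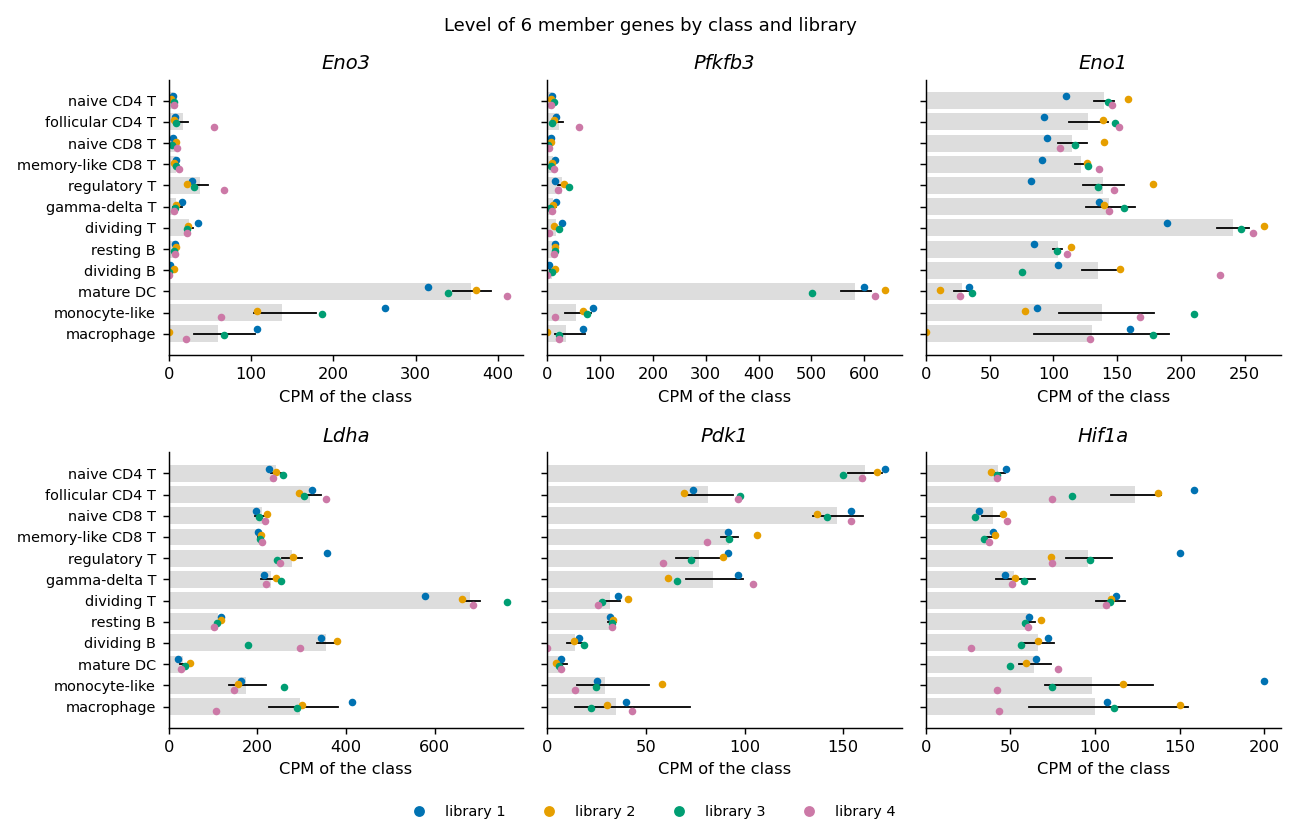
CPM of Eno3, Pfkfb3, Eno1, Ldha, Pdk1 and Hif1a in the 12 classes. Grey bars are all libraries together with 95% Poisson intervals as black lines, which cover counting error only, and dots are libraries 1 to 4. Eno3 and Pfkfb3 are highest in mature DC (368 and 583 CPM), where Eno1 and Ldha are lowest (28.1 and 32.8 CPM).

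The enzymes from triose phosphate to phosphoglycerate combined high levels with large ratios in dividing cells. Tpi1, which interconverts the triose phosphates, was at 185, 193, 223 and 213 CPM in dividing T cells against 23.6, 24.5, 30.2 and 28.9 CPM in resting T cells. The libraries gave almost the same ratio, with log2 differences from 2.88 to 2.97. Gapdh, which makes the NADH of glycolysis and is often used as a reference gene, was at 1663, 1732, 1723 and 1814 CPM against 339, 388, 379 and 359 CPM. It was 4.74-fold higher in dividing T cells, and every library showed at least a log2 difference of 2.16.

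Both phosphoglycerate enzymes followed. Pgk1, which forms ATP, was at 279, 337, 356 and 336 CPM in dividing T cells against 84.8, 93.2, 92.9 and 85.0 CPM in resting T cells. Pgam1, the mutase of the next step, was at 195, 216, 224 and 227 CPM against 46.5, 50.1, 46.5 and 39.5 CPM. No range overlapped, and the log2 differences were 1.89 for Pgk1 and 2.26 for Pgam1. In dividing B cells Tpi1 was 4.90-fold, Gapdh 4.65-fold and Pgam1 3.80-fold higher than in resting B cells, while Pgk1 was not called (243 against 70.6 CPM, with 103.2 CPM in library 3). In follicular CD4 T cells Gapdh was 1.83-fold higher than in naive CD4 T cells, at 684, 716, 620 and 691 against 338, 402, 390 and 366 CPM.

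Other enzymes of the upper pathway were even across classes. Gpi1, which isomerises glucose 6-phosphate, ran from 138 CPM in mature DC to 218 CPM in dividing T cells, a 1.58-fold span, and was never called in 8 contrasts. Aldoa, the main aldolase, ran from 174 CPM in naive CD8 T cells to 341 CPM in macrophages and was never called either. The symbol Aldoa has 2 gene IDs in the matrix, of which the other one had 0 UMIs. Aldoc, the brain form, was low everywhere and was called higher in resting B than in naive CD4 T cells, at 5.57 against 1.26 CPM from 189 and 11 UMIs.

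Enolases form phosphoenolpyruvate, and here the classes differed in isoform. Eno1, the form of most tissues, was above 100 CPM in 11 classes and lowest in mature DC, at 33.6, 10.9, 35.9 and 27.0 CPM. Eno3, the form known from muscle, was highest in mature DC, at 314, 373, 339 and 410 CPM, and made up 92.9% of Eno1 and Eno3 UMIs there (90.3% to 97.2% over the libraries, 95% Clopper-Pearson interval of the total 91.2% to 94.4%). Eno2, an enolase outside the module, is not part of this share. It was at 46.1 CPM in mature DC, above Eno1 at 28.1 CPM. In monocyte-like cells Eno3 was at 262, 107, 186 and 63.0 CPM, a share of 50% that ran from 27.3% to 75% over libraries. The mature DC levels lay above every monocyte-like library, but Eno3 was not called because library 1 fell short of 1.5-fold. Eno1 was called lower, with a log2 difference of -2.29.

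Single mature DC showed the same order. An Eno3 UMI was found in 248 of 349 mature DC, an Eno1 UMI in 60, and 210 had Eno3 without Eno1 while 22 had Eno1 without Eno3. Eno3 and Pfkfb3 UMIs were found together in 210 cells, where 280 cells had a Pfkfb3 UMI. Each gene was found in most cells, and whether they were found together more often than apart detection gives was not tested. The share of cells with an Eno3 UMI was 71.1% in mature DC, 1.90% in resting B cells and 2.45% in naive CD4 T cells, and 37.1%, 0.604% and 0.775% after thinning to 1500 UMIs. The near-identical copy Eno1b, listed separately, had 185 UMIs in all kept barcodes, so how reads were divided between it and Eno1 is uncertain.

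Regulatory T cells held more Eno3 than other resting T cells. The level was 28.1, 22.2, 31.2 and 67.6 CPM in libraries 1 to 4, against 5.22, 3.43, 6.48 and 6.53 CPM in naive CD4 T cells, 6.81-fold higher (log2 difference 2.77) with no overlap. Its share of Eno1 and Eno3 UMIs was 21.6% (11.1% to 31.5%) against 3.86% (2.11% to 4.55%). Mature DC markers other than Ccr7 were present in the same cells at a summed 7.04, 291, 86.6 and 456 CPM, against 5323 CPM in mature DC. Library 1, with 7.04 CPM of those markers, held Eno3 at 28.1 CPM. With cells thinned to 1500 UMIs Eno3 had too few counts there for the rule. Leaving out lymphocytes with a UMI of Fscn1, Ccl22 or Cacnb3 gave a log2 difference of 2.75 against 2.73 on the same scale with a prior count of 1. In follicular CD4 T cells, Eno3 was at 7.79, 6.46, 8.38 and 54.8 CPM, and library 4 was also high in mature DC markers (553 CPM against 5.59 to 29.1 CPM in the other libraries). The part of these markers in either library 4 level was not tested. In dividing T cells Eno3 was 4.12-fold higher than in resting T cells, at 25.2 against 6.11 CPM, with mature DC markers at 206, 8.86, 145 and 29.1 CPM in libraries 1 to 4. Eno1 was 1.82-fold higher there, at 241 against 132.5 CPM.

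Pkm, the pyruvate kinase of these cells, was at 436, 489, 631 and 568 CPM in dividing T cells against 164, 176, 165 and 164 CPM in resting T cells. It was also called higher in dividing B cells, at 284, 359, 225 and 343 against 103.4, 108, 111 and 103.3 CPM. The ranges were apart in both lineages, with ratios of 3.25 and 3.06. It was lower in resting B than in naive CD4 T cells (log2 difference -0.73) and lower in mature DC than in monocyte-like cells (-1.73). 3′ UMIs do not separate its M1 and M2 splice forms.

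Ldha, the lactate dehydrogenase subunit that favours lactate formation, was called in the same 2 dividing contrasts as Pkm. It was at 578, 662, 762 and 687 CPM in dividing T cells against 218, 235, 245 and 230.1 CPM in resting T cells, 2.92-fold higher. In dividing B cells it was at 343, 380, 178 and 297 CPM against 119, 118, 108 and 102.5 CPM, 3.19-fold higher, with library 3 the lowest. In mature DC it was at 21.6, 48.0, 37.1 and 27.0 CPM, against 162, 156, 259.9 and 147 CPM in monocyte-like cells. Mature DC held the lowest level of all 12 classes, 20.8-fold below dividing T cells.

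Ldhb, whose subunit favours the use of lactate, was highest in regulatory T cells (44.3 CPM), followed by naive CD4 T cells (36.3 CPM). It was at 33.4, 34.3, 37.0 and 39.2 CPM in naive CD4 T cells and at 1.16, 0.832, 0.477 and 0.661 CPM in resting B cells. The ranges lay far apart, with a log2 difference of -5.57 and 26 Ldhb UMIs in 7889 resting B cells. As a share of Ldha and Ldhb UMIs it was 13.1% in naive CD4 T (12.4% to 14.2%), 11.4% in naive CD8 T, 0.685% in resting B (0.438% to 0.968%) and 0.0945% in dividing B cells, from 1 UMI. NK cells had 0 of 66 UMIs, which allows a share of up to 4.55%.

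In memory-like CD8 T, follicular CD4 T and dividing T cells the share was lower than in the naive gates, and in regulatory T cells it was not. Memory-like CD8 T cells had Ldhb at 7.06, 8.83, 7.55 and 11.1 CPM against 25.1, 22.3, 35.8 and 26.8 CPM in naive CD8 T cells, with no overlap and a log2 difference of -1.63. Ldhb was the only member called in that contrast. It was also called lower in follicular than in naive CD4 T cells, at 19.98 against 36.3 CPM, a call lost with the 500-gene filter and with thinning. Dividing T cells had a share of 2.19% (1.39% to 3.18%). Regulatory T cells had 13.8%, from 7.88% in library 1 to 20.8% in library 4, overlapping naive CD4 T cells. In mature DC the share was 20.9% (12% to 31.7%), on 24 Ldhb and 91 Ldha UMIs.

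Lactate leaves and enters cells through monocarboxylate transporters. Slc16a3, the export transporter MCT4, was at 7.06, 4.83, 20.8 and 27.2 CPM in dividing T cells against 0.737, 0.743, 1.18 and 0.286 CPM in resting T cells. The ranges did not overlap, and 94 and 9 UMIs gave a 22.0-fold ratio. It made up 43.5% of Slc16a1 and Slc16a3 UMIs in dividing T cells (27.3% to 57.5%) and 6.34% in resting T cells. Slc16a1, the transporter MCT1, was called higher in dividing B cells, at 6.24, 14.99, 28.2 and 6.598 CPM against 2.45, 2.49, 1.19 and 1.61 CPM in resting B cells. Libraries 3 and 4 of dividing B cells hold 10 and 12 cells, so their levels rest on very few UMIs. The call had too few counts with the 500-gene filter, with thinning and with 20 counts per library. In resting B cells Slc16a1 was 4.86-fold lower than in naive CD4 T cells.

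Pyruvate dehydrogenase kinases inhibit the pyruvate dehydrogenase complex, which turns pyruvate into acetyl-CoA inside the mitochondria. Pdk1 was lower in dividing cells, unlike the enzymes above. It was at 166, 157, 148 and 158 CPM in resting T cells and at 36.1, 41.1, 27.6 and 25.9 CPM in dividing T cells, a 4.92-fold drop with no overlap. It was called lower in 5 of 6 contrasts in which it could be tested. The call in follicular CD4 T cells was lost with the 500-gene filter, with thinning, with a 2-fold rule and without lymphocytes that held dendritic cell markers. The call in dividing B cells was lost under the first 3 of these and with 1 marker more in the gates, and that in regulatory T cells under the 2-fold rule. In regulatory T cells it was at 91.5, 88.9, 72.8 and 58.9 CPM and in follicular CD4 T cells at 74.0, 69.5, 97.8 and 96.5 CPM, against 171, 167, 150.1 and 159.6 CPM in naive CD4 T cells. In resting B cells it was at 32.7 CPM and in dividing B cells at 14.1 CPM.

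Pdk3, another kinase, moved the other way in dividing T cells, at 25.9, 40.3, 30.4 and 24.6 CPM against 9.22, 8.91, 8.29 and 8.01 CPM. Pdk1 made up 95.8% of Pdk1 and Pdk3 UMIs in naive CD4 T cells (94.9% to 97.0%), 76.6% in resting B cells (73.1% to 78.0%), 51.5% in dividing T cells (47.6% to 58.2%) and 10.8% in mature DC (5.71% to 13.04%). These 4 ranges did not overlap. With cells thinned to 1500 UMIs the dividing T share was 68.2% and the mature DC share 17.4%. Pdk3 itself was highest in monocyte-like cells, at 73.8 CPM, and was called higher in follicular than in naive CD4 T cells, at 14.98 against 6.98 CPM. Pdha1, a subunit of the enzyme these kinases act on, was lower in resting B than in naive CD4 T cells (37.2 against 76.9 CPM) and in mature DC than in monocyte-like cells (13.7 against 46.7 CPM).

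**Figure D4:**
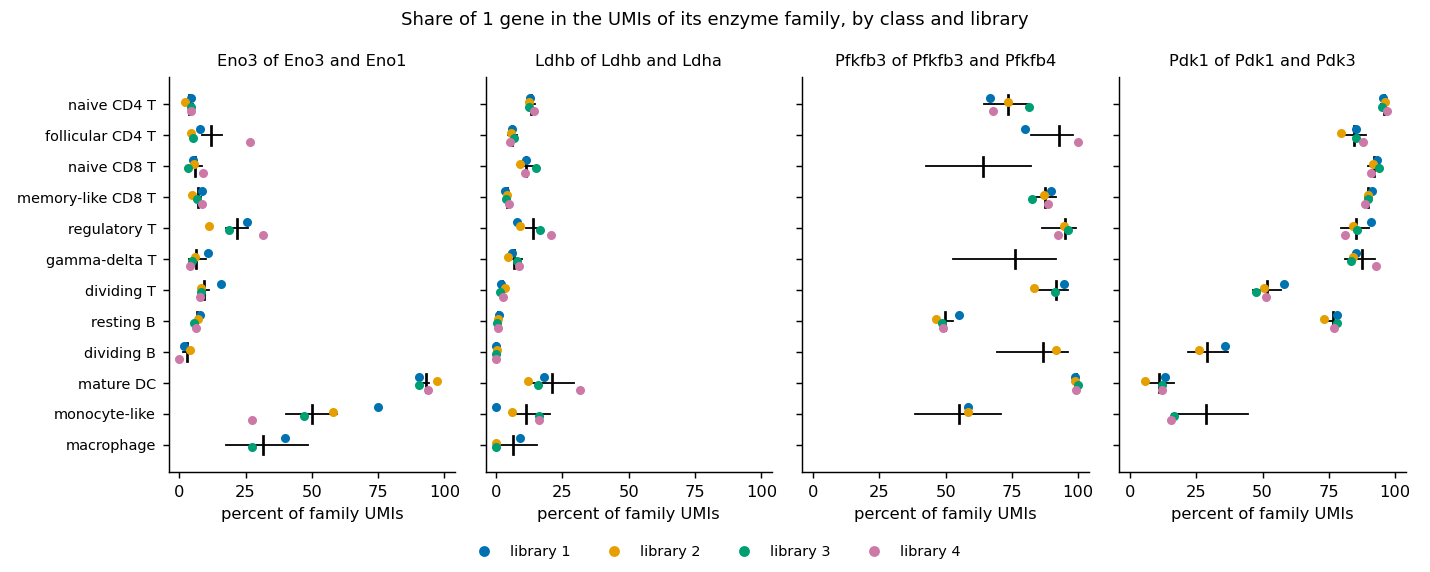
Share of Eno3, Ldhb, Pfkfb3 and Pdk1 in the UMIs of their pair, by class. Black bars are all libraries with 95% Clopper-Pearson intervals, dots are libraries with at least 10 UMIs of the pair, and a class with fewer than 20 UMIs in all is left blank. Eno3 takes 92.9% in mature DC and 3.86% in naive CD4 T cells, and Pdk1 takes 10.8% and 95.8% there.

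Over all families, class pairs were compared by whether their library ranges of the share overlapped. The ranges were apart in 29 of 36 pairs for Pdk1, 13 of 15 for Pfkfb3, 48 of 78 for Ldha, 33 of 55 for Eno1 and 6 of 10 for Slc16a1. For Hk1 they were apart in 15 of 45 pairs, for Slc2a1 in 7 of 21, for Pfkl in 7 of 45 and for Aldoa in 15 of 78. No such count was made for other genes, each class recurs in many pairs, and families differ in UMIs. The counts therefore do not rank the families. These are shares of captured 3′ ends that are not divided by transcript length, and capture may differ between isoforms.

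Hif1a, the regulated subunit of HIF-1, was called higher in 3 contrasts. It was at 112, 109.5, 109 and 107 CPM in dividing T cells against 42.8, 40.8, 39.1 and 43.8 CPM in resting T cells, 2.62-fold higher with little spread between libraries. Within the dividing T gate Hif1a differed by subset. It was at 188 CPM in cells with Foxp3, 81.8 CPM in cells with Cd4 alone and 59.98 CPM in cells with a CD8 gene alone. In follicular CD4 T cells it was at 158, 137, 86.6 and 74.6 CPM and in regulatory T cells at 150.1, 74.0, 97.0 and 74.5 CPM, against 47.5, 38.3, 41.9 and 42.1 CPM in naive CD4 T cells. Neither range reached down to the naive one, and the log2 differences were 1.54 and 1.17. The regulatory and follicular calls were lost with the filter of 500 genes and 5% mitochondrial UMIs, and the regulatory call with thinning. Haemoglobin RNA in follicular CD4 T cells was at 4465, 31940, 11.2 and 35.1 CPM in libraries 1 to 4. In regulatory T cells it ran from 15.6 to 8865 CPM. Leaving out 39 barcodes with over 1% of UMIs from haemoglobin genes, added after the data were seen, gave a follicular log2 difference of 1.55 against 1.54.

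Targets of the hypoxia response did not move as 1 group. Higd1a, a mitochondrial protein induced by low oxygen, was called higher in dividing T cells, at 169, 168, 183 and 199 CPM against 76.7, 77.6, 75.5 and 82.4 CPM. In mature DC it was lower than in monocyte-like cells, at 34.2 against 81.2 CPM. Ankrd37, a HIF-1 target of uncertain role, was highest in resting B cells, at 37.2, 46.0, 29.1 and 27.9 CPM against 8.36, 5.14, 6.86 and 8.17 CPM in naive CD4 T cells. In mature DC it had 0 UMIs. P4ha1, a collagen prolyl hydroxylase subunit, was lower in resting B than in naive CD4 T cells, at 5.83 against 23.0 CPM, and was highest in regulatory T cells, at 43.9 CPM.

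Bnip3, a mitophagy receptor, was never called in 6 contrasts and was highest in macrophages, at 75.2 CPM from 15 UMIs, or 36.9 CPM from 7 UMIs without that 1 barcode. Egln3, an oxygen-sensing hydroxylase that is itself induced by HIF-1, had 49 UMIs in dividing T cells (8.39 CPM) and 13 in resting T cells (1.06 CPM), too few libraries with counts for the rule. Vegfa, the angiogenic ligand, stayed at or below 10.0 CPM in every class, with 0 UMIs in 4 of the 12.

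Dividing T cells were of several kinds. Of 259, 83 had a Foxp3 UMI, 95 had a CD8 gene without Cd4 or Foxp3, and 32 had Cd4 alone. The remaining dividing T cells fell in none of these subsets and are not described here. The module took 0.577% of UMIs in the Foxp3 cells, 0.458% in the CD8 cells and 0.476% in the Cd4 cells. Hif1a stood at 188 CPM (95% Poisson interval 169.6 to 208) in dividing Foxp3 cells and 59.98 CPM (50.1 to 71.2) in dividing CD8 cells. Slc16a3 was at 20.3 CPM (14.6 to 27.5) and 1.85 CPM (0.503 to 4.72), from 41 and 4 UMIs. The Cd4 cells held 3 Slc16a3 UMIs, and much of the Slc16a3 count of dividing T cells lay outside these subsets. Pkm was at 693 and 391 CPM, and P4ha1 at 34.6 and 11.1 CPM. Eno3 ran the other way, at 13.4 CPM in Foxp3 and 30.9 CPM in CD8 cells. Gpi1 was level, at 224 and 223 CPM. These subsets were summed over the libraries, and the intervals cover counting error only.

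Other pathway genes gave the setting of the dividing cells. Of 14 genes of the pentose phosphate and one-carbon pathways, 10 were higher in dividing T cells and 7 in dividing B cells, with none lower. Psat1 and Phgdh, which lead from glycolysis to serine, were at 76.9 against 8.39 CPM and 268 against 59.7 CPM in T cells. Shmt1, which moves a carbon from serine to folate, was at 26.2 against 5.54 CPM. Of 21 oxidative phosphorylation genes 13 were higher in dividing T and 4 in dividing B cells, led by Cox5a in T cells (568 against 203.5 CPM). Of 14 genes of the tricarboxylic acid cycle, 6 were higher in dividing T cells and 4 in dividing B cells. The shares of all genes called higher were 21.6% in dividing T and 7.75% in dividing B cells. On the log2 scale the medians of the 3 lists were 1.32, 0.91 and 0.66 in dividing T cells, against 0.25 for all genes, and 1.32, 0.96 and 0.77 in dividing B cells, against -0.06. Idh3a, a subunit of isocitrate dehydrogenase, was at 93.2 against 31.4 CPM in T cells, and Idh2, another isocitrate dehydrogenase, at 54.0 against 13.3 CPM in B cells.

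Counts for the other glycolysis and hypoxia genes were near those of all genes, of which 21.6% were higher and 6.43% lower in dividing T cells. Of 17 further glycolysis, pyruvate and lactate genes tested in dividing T cells 3 were higher, namely Bsg, the chaperone of lactate transporters (189 against 72.6 CPM), Mpc1, a subunit of the mitochondrial pyruvate carrier (150 against 65.7 CPM), and Dlat. Of 18 further hypoxia genes 4 were higher, with Bhlhe40 (14.7 against 0.814 CPM), Mif and Ero1l leading, and 2 were lower, Ddit4 and Bnip3l. The list medians in dividing T cells were 0.37 and 0.15 on the log2 scale, against 0.25 for all genes. In dividing B cells 0 of 21 further glycolysis genes were higher and 4 lower, and 0 of 20 further hypoxia genes were higher and 3 lower, where 7.75% of all genes were higher and 9.10% lower. Of 16 MYC and mTOR pathway genes tested, 4 were higher in dividing T cells and 2 were higher and 1 lower in dividing B cells, counts near those of all genes. In dividing T cells they included Odc1, which makes polyamines, at 176 against 31.9 CPM. In regulatory T cells Bhlhe40, Mxd4, Mxd1 and Odc1 were higher, and in follicular CD4 T cells Mxd4 and Odc1, while no gene of the oxidative phosphorylation, tricarboxylic acid cycle or one-carbon lists was called in either.

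Genes of the other lists were also counted in mature DC against monocyte-like cells, where 12.3% of all genes were higher and 12.8% lower. Eno2, the neuronal enolase, was at 46.1 CPM in mature DC with 0 UMIs in monocyte-like cells, at least 6.25-fold higher when 3 counts over the class are taken as the floor. Of 16 other hypoxia genes, 3 were higher, namely Adm (at least 3.86-fold), Vhl, which marks HIF for breakdown (209 against 27.1 CPM), and Ndrg1 (89.7 against 17.2 CPM), and Wsb1 was lower, a count near that share. The median of this list was -0.28 on the log2 scale, against -0.12 for all genes. Of 7 pentose phosphate and one-carbon genes, G6pdx (8.64 against 68.9 CPM), Taldo1, Tkt and 2 more were lower, while Mthfd2 was higher. Mxd1, a partner of MAX that opposes MYC, was at 480.0 against 12.3 CPM, the latter from 5 UMIs.

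Members spread between libraries about as much as other genes. Among 129 pairs of a member and a class with at least 30 UMIs in every library, 18 (13.95%) had a ratio of 1.5 or more between the highest and the lowest library, against 13.47% of 33687 such pairs over all genes. In regulatory T cells the median ratio was 1.32 for 11 members and 1.32 for all 1741 genes, and in resting B cells 1.20 for 26 members and 1.20 for 8594 genes. The widest pairs were Eno1 in regulatory T cells (82.1, 178, 135 and 147 CPM, 2.17-fold) and Hif1a in follicular CD4 T cells (2.12-fold). Eno1 was lowest in library 1 in all 8 classes where it had that many UMIs, although in gamma-delta T cells the spread was only 1.14-fold. Which mouse or group library 1 came from was not analysed here.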

How the data were processed

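Single-cell RNA sequencing was done on inguinal lymph nodes of 2 control and 2 treated mice. The deposited matrix holds raw UMI counts per gene and barcode, which the authors made with Cell Ranger 5.0.0, per the file headers, on mm10, per the submitters' processing notes. Whether each of the 4 library suffixes is 1 mouse is not stated, and none was tied to a group, so the planned edgeR comparison of treated with control was not made.

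Barcodes were gated on marker genes, a lineage gate needing at least 2 of its markers (3 for monocyte-like and plasma cells) and no UMI of the opposed lineage. T cells were then split, dividing cells first, by single genes such as Foxp3 and Trdc and by naive, memory and follicular markers. Barcodes that passed gates of 2 lineages were left out, except that the macrophage and mature DC gates went before the monocyte-like gate. For CPM, the UMIs of a gene were added up over the cells of a class in 1 library and divided by the UMI total of the same cells. The fold rule (1.5-fold, 10 counts, 3 libraries) was applied to all genes. A log2 difference compares CPM of all libraries together, and the alternatives add a prior count of 1. Counting intervals (95%) are exact, Poisson for levels and Clopper-Pearson for shares, and cover counting error only. A share is given where a class held at least 20 UMIs of the family. For 0 counts a floor of 3 counts was used. Values per library are given for members that reach 50 CPM in a class and were called or differ in isoform share, with others added where a class contrast turned on them, and up to 3 called genes per pathway list and contrast are named by their ratio. Fam162a, Pgd and other called genes beyond these are counted only.

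The alternatives were TMM factors (edgeR 4.0.16, R 4.3.3), a total without immunoglobulin, T cell receptor, ribosomal and mitochondrial genes, a stricter filter (500 genes, 5% mitochondrial), removal of 927 barcodes called as doublets by Scrublet, thinning to 1500 UMIs, other thresholds, 1 marker more in lineage gates with over 3 markers and leaving out each library. The alternatives on lineage exclusion, the CD8 gate, dendritic cell RNA and haemoglobin RNA were added after seeing the data. The rule was tested on simulated data with 200 changed genes at a dispersion of 0.05. It recovered 65.5% to 86.9% of the 3-fold changes over the contrasts and called 0.376% to 2.30% of unchanged genes. The members, gene lists and classes were chosen with earlier results of these data known. Of the 34 symbols, 33 matched 1 gene ID. Promoters came from RefSeq (GRCm38.p6). Python 3.11.15, numpy 2.4.6, pandas 2.3.3, scipy 1.17.1, scanpy 1.11.5 and matplotlib 3.10.9 were used.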

Additional observations from a re-analysis of the deposited data

How the results depend on the processing

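Of the single calls under the alternatives, 831 kept their side of the rule, 64 were lost, 23 had too few counts and 0 changed direction. The 831 include the 54 calls of each leave-one-out setting, where the rule asked for 2 libraries and no call could be lost. The setting of 3 CD8 markers changed only the memory-like CD8 T class. The tally therefore does not measure how robust the calls are. Of counts, levels and shares 423 stayed within their limits and 70 moved. Few cells limited dividing B cells, monocyte-like cells and macrophages most. No paired analysis was possible because no barcode was tied to a numbered mouse, so the replicate block and DESeq2 on treated against control were not run. NK cells and type 1 dendritic cells were too few for their planned contrasts. The causes of the shifts below were not tested. Apart from the TMM and reduced-total scalings, calls over all genes are not given beside the member counts below. Those counts describe the processing and are not results about the members.

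With TMM factors, 4 members were higher in dividing B, 0 in follicular CD4 T and 2 in mature DC, and 2 were lower in mature DC and 2 in dividing T. Over all genes, higher calls went from 822 to 540 in dividing B and from 314 to 197 in follicular CD4 T. In mature DC they went from 721 to 1177, and lower calls from 748 to 467. Lower calls in dividing T went from 626 to 1070. The summed log2 difference was then 1.17 in dividing T, 0.21 in follicular CD4 T and 0.0589 in regulatory T, against 1.42, 0.44 and 0.33 with library totals. The median of all genes tested moved from 0.25 to 0.00 in dividing T and from -0.12 to 0.36 in mature DC. With the total without immunoglobulin, T cell receptor, ribosomal and mitochondrial genes, 1 member was higher in follicular CD4 T and 2 lower in dividing T, and the summed differences were 1.08, 0.25 and 0.13. Over all genes 226 were then higher in follicular CD4 T and 1313 lower in dividing T. With 500 genes and 5% mitochondrial UMIs, 1 was higher and 0 lower in follicular CD4 T, 1 higher in memory-like CD8 T, 2 lower in dividing T, 2 lower in regulatory T and 0 lower in macrophages. The Pdk1 share in dividing T was then 45.7% and the Pfkfb3 share in resting B 57.1%. With cells thinned to 1500 UMIs, 8 members were higher in dividing T, 4 in dividing B, 1 in follicular CD4 T, 1 in regulatory T and 2 in mature DC, and 2 were lower in dividing T, 6 in dividing B, 0 in follicular CD4 T, 1 in mature DC and 0 in macrophages. The summed difference in dividing T was 1.27, the Ldhb share in resting B 0.400%, and the Pdk1 share 68.2% in dividing T and 17.4% in mature DC.

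With the 2-fold rule 0 were higher and 0 lower in follicular CD4 T, 2 lower in mature DC, 0 lower in regulatory T and 4 lower in resting B. With 20 counts 3 were lower in mature DC and 0 in macrophages. With no count minimum 5 were higher in follicular CD4 T, and 2 were lower in dividing T, 4 in macrophages, 11 in mature DC and 2 in regulatory T. With 1 marker more in lineage gates that have over 3 markers, which left the T cell gates as they were, the Pfkfb3 share in resting B was 45.2% and 2 were lower in macrophages. Among the alternatives added after seeing the data, allowing 1 UMI of the other lineage gave 5 higher and 1 lower in follicular CD4 T and 2 higher and 10 lower in mature DC. Leaving out lymphocytes with dendritic cell markers gave a Pfkfb3 share in resting B of 37.6% and 1 lower in follicular CD4 T, and asking for 3 CD8 markers gave 2 lower in memory-like CD8 T.

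Without each library in turn, members called higher ranged from 15 to 17 in dividing T, 7 to 10 in dividing B, 3 to 5 in regulatory T, 3 to 5 in follicular CD4 T, 0 to 2 in memory-like CD8 T, 4 to 5 in resting B, 1 to 2 in mature DC and 0 to 2 in macrophages. Members called lower ranged from 1 to 2, 3 to 6, 1 to 2, 2 to 2, 1 to 2, 7 to 8, 5 to 11 and 1 to 1 in the same order. With 1 library left out the rule asked for 2 libraries in place of 3, so more genes could be called. Without library 1, 5 members were higher and 2 lower in regulatory T, and 2 higher and 10 lower in mature DC. Without library 2, 2 were lower in dividing T, 6 lower in dividing B, 2 lower in regulatory T, 2 higher and 2 lower in memory-like CD8 T and 11 lower in mature DC. Without library 3, 1 was higher in macrophages, and without library 4, 5 were higher in follicular CD4 T, 2 higher in macrophages and 2 lower in memory-like CD8 T. The summed log2 difference ranged from 1.39 to 1.45 in dividing T, 1.28 to 1.41 in dividing B, 0.43 to 0.47 in follicular CD4 T and 0.30 to 0.38 in regulatory T. The Eno3 share ranged from 92.1% to 93.9% in mature DC, 41.7% to 59.5% in monocyte-like, 3.65% to 4.36% in naive CD4 T and 16.7% to 25.8% in regulatory T. The Ldhb share ranged from 12.6% to 13.3% in naive CD4 T, 14.9% to 23.4% in mature DC and 0.594% to 0.764% in resting B. The Pdk1 share ranged from 95.4% to 96.2% in naive CD4 T, 49.65% to 53.1% in dividing T and 10.1% to 12.3% in mature DC. The Pfkfb3 share ranged from 48.2% to 50.6% in resting B and 98.9% to 99.3% in mature DC, and the Hk2 share from 18.7% to 23.1% in dividing T and 0.599% to 2.61% in naive CD4 T.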
